A study of Mus musculus with 60 samples.

Results

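Whole blood from mice given BIO 300 or its vehicle was examined for S100b and 9 genes of fat cells: Adipoq, Cfd, Retn, Fabp4, Plin1, Cidec, Lpl, Scd1 and Car3. These 10 genes, of 49315 in the count tables, were listed by name and matched by gene ID. They were chosen by their measured levels across these mice and groups, which were already known, so their levels, their differences between groups and their relation to each other are descriptions. Each library came from 1 mouse that was bled once, and a level is given in CPM, counts scaled to library size, here by TMM over all 60 libraries.

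Adipocytes store triglyceride in lipid droplets and release hormones, and blood cells are not known as a source of their defining transcripts. Adiponectin, adipsin and resistin are secreted, perilipin 1 and CIDEC coat and enlarge the droplet, and other proteins of the group carry, take up or desaturate fatty acids. Brown adipocytes carry in addition UCP1, which uncouples respiration to give heat. S100B is a calcium-binding protein best known from glia, and adipocytes, brown ones included, also make it.

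Male CD2F1 mice, 5 to 6 weeks old when purchased and then quarantined, received an oral dose each morning and each evening for 6 days. The doses were either of vehicle (water, methylcellulose and polyvinylpyrrolidone) or of BIO 300, an oral powder of the isoflavone genistein in an amorphous dispersion. The Low, Med and High doses were 50, 100 and 200 mg/kg. Day 0 blood was taken 24 h and Day 1 blood 48 h after the last dose, from unirradiated mice at each dose and with vehicle. A further vehicle group and a 200 mg/kg group received 9.2 Gy of 60Co total-body irradiation (TBI) on Day 0 and were bled on Day 1, 24 h later. Each of the 10 groups held 6 mice. Blood was drawn through a needle from the inferior vena cava, a vein of the abdomen, under isoflurane, and the mice were then euthanized.

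Library totals ran from 15099415 to 45589415 counts, with a median of 24877993.5, and TMM factors ran from 0.415 to 2.02. Genes of red cells, lymphocytes, neutrophils and platelets summed to 18840 CPM or more in every library, so transcripts of blood were present in each. Lowest was mouse 51, where 10 hepatocyte genes summed to 26960 CPM. The blood sum takes its genes together and does not show each cell type on its own. In the 100 and 200 mg/kg groups on Day 1 this sum lay between 268200 and 606300 CPM, against 29470 to 301400 CPM in the other unirradiated libraries. Fold changes in these 2 groups moved with the scaling, as given beside them. In whole blood, fewer cells of a type and less RNA per cell cannot be told apart.

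Promoters of S100b and of 3 fat cell genes whose levels went closely together between mice are shown for reference. RefSeq windows on GRCm38.p6, 250 bases before to 50 after a start, were matched for 6 of the 10 genes, in 7 windows. They were S100b, Adipoq, Plin1, Cidec, Cfd and Retn. The windows shown are those of S100b at chr10:76253586-76253885 (forward strand), Adipoq at chr16:23146286-23146585 (forward), Plin1 at chr7:79732727-79733026 (reverse) and one of the starts of Cidec at chr6:113434715-113435014 (reverse). Capitals mark CCAAT or its other strand ATTGG in S100b and Adipoq, and TTGCNNAA, the form bound by C/EBP factors, in Plin1 and Cidec.
S100b: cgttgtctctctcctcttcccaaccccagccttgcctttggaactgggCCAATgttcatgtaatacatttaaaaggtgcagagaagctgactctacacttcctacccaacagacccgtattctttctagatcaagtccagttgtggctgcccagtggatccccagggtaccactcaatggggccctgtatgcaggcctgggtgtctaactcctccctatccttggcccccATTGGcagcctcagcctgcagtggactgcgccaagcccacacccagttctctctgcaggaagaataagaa
Adipoq: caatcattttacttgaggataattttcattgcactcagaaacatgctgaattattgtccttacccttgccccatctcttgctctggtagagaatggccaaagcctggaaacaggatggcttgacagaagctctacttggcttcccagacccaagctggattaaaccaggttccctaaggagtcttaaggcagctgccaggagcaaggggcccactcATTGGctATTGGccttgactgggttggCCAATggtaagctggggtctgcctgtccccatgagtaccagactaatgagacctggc
Plin1: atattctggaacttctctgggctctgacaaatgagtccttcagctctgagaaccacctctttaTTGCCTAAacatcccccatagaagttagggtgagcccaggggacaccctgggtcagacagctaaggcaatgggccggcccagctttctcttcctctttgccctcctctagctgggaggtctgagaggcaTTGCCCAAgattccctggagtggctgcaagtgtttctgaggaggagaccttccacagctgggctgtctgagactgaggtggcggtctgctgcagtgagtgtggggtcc
Cidec: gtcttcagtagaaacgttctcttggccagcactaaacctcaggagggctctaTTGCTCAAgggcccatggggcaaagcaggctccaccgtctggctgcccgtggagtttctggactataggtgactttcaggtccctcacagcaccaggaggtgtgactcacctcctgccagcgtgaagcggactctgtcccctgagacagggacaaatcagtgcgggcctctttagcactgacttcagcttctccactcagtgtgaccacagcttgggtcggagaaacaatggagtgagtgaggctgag

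4 motifs were searched on both strands. S100b and Adipoq each held CCAAT, which stood in 37.4% of all 32851 promoter windows, and Plin1 and the Cidec window above held TTGCNNAA, which stood in 10.8%. The other Cidec window, at chr6:113435711-113436010, held none of the 4 motifs, so TTGCNNAA was in 2 of the 7 windows. In Plin1 the matches were TTGCCTAA, 187 to 180 bases before the start, and TTGCCCAA, 58 to 51 bases before it. The match in Cidec was TTGCTCAA, 198 to 191 bases before its start. AGGTCA, a nuclear receptor half-site found in 16.3% of windows, and TATAAA, found in 13.6%, were in none of the 7 windows, and no matches overlapped. The windows of S100b and Plin1 shared none of these motifs, and those of S100b and Adipoq shared CCAAT, which is common among promoters.

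Per kilobase of exon, the members spanned a wide range of levels in the median mouse. Scd1 stood highest at 39.3 CPM per kb, followed by Car3 at 3.65. Fabp4, Cfd, Lpl and Retn lay between 0.413 and 0.741 CPM per kb, Cidec and Adipoq at 0.247 and 0.237, Plin1 at 0.0735 and S100b lowest at 0.0392. For most members, a few mice carried levels far above these medians. In each member the 10 groups were ordered by their medians, and in all 90 pairs of neighbours in these orders the ranges overlapped.

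**Figure D1:**
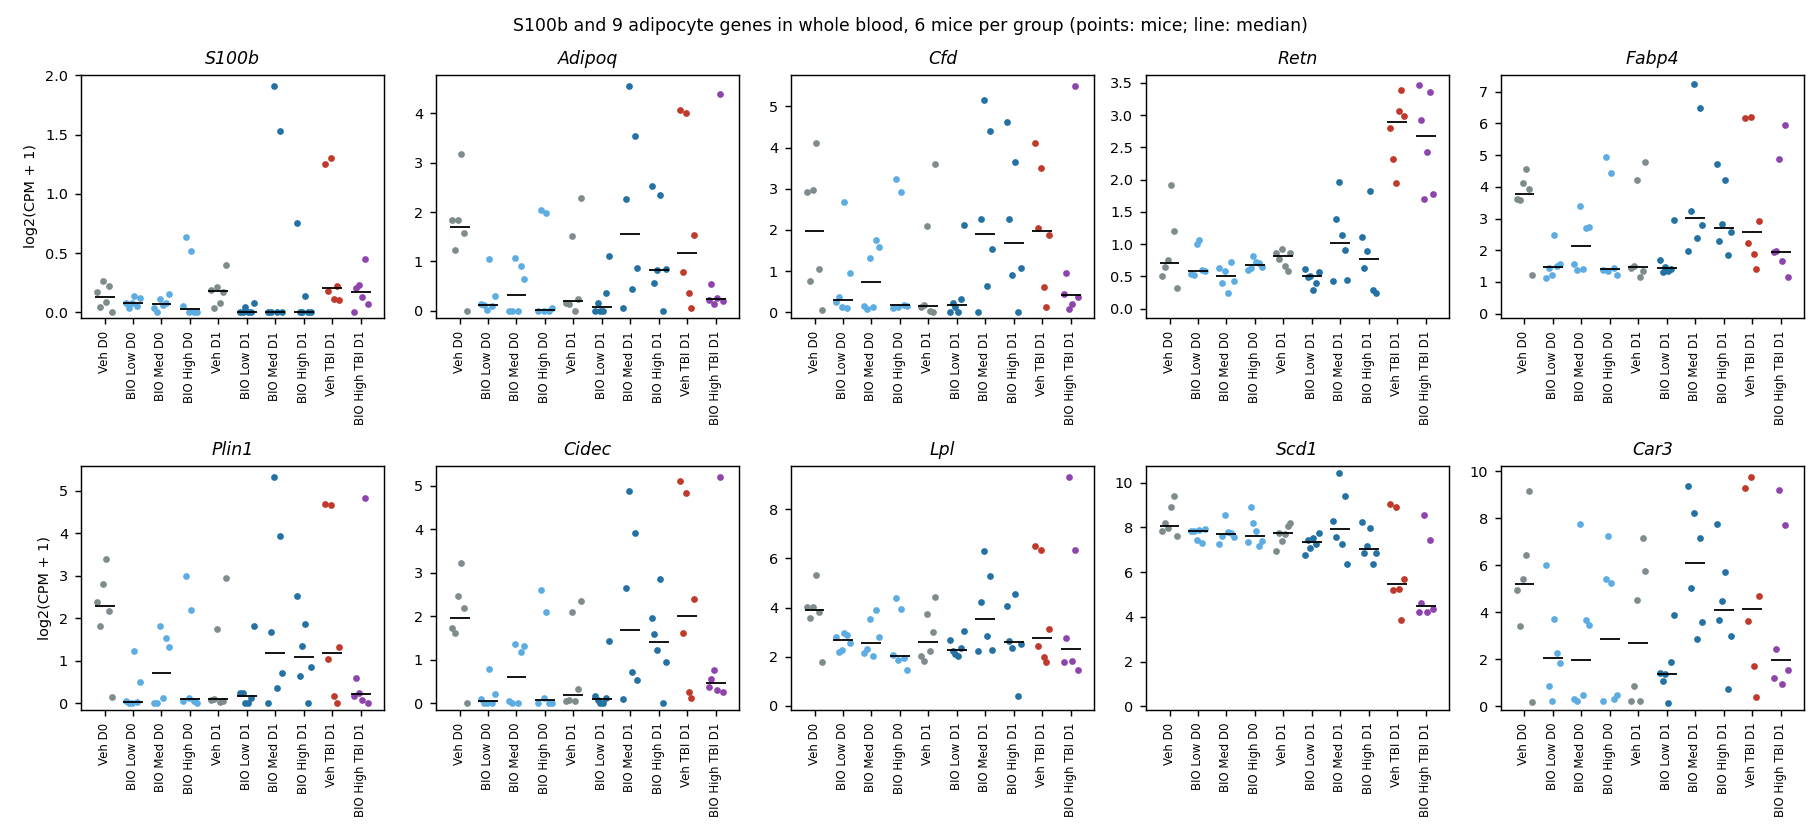
Levels of the 10 genes on the log2(CPM + 1) scale (vertical axis) in the 10 groups (horizontal axis), with 1 point per mouse and a line at each group median. Adipoq, Cfd, Plin1 and Cidec lay near 0 in most mice with a few mice far above, Retn was high in all 12 irradiated mice, and Scd1 was below 60 CPM in 8 of them.

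Adipoq, which encodes adiponectin and lies on chromosome 16 of GRCm38 from 23146536 to 23158028, was at 0 counts in 12 mice and at 1 CPM or more in 21. In vehicle-treated mice on Day 0 it ran from 0 over a median of 2.27 to 7.97 CPM, with 5 of 6 mice at 1 CPM or more. At 50 mg/kg on Day 0 it ran from 0.0196 over 0.0906 to 1.08 CPM. At 100 mg/kg it ran from 0 over 0.285 to 1.09 CPM, and at 200 mg/kg from 0 over 0.0187 to 3.09 CPM. Of the 10 groups, vehicle-treated mice on Day 0 held the most animals at 1 CPM or more, while each BIO 300 group overlapped them. On Day 1, vehicle-treated mice ran from 0 over 0.152 to 3.84 CPM, and mice given 50 mg/kg from 0 over 0.059 to 1.17. Mice given 100 mg/kg ran from 0.035 over 2.31 to 22.4 CPM and those given 200 mg/kg from 0 over 0.786 to 4.72. The vehicle-treated Day 1 mice shared the vehicle of the Day 0 mice, but 2 rather than 5 of them reached 1 CPM. After TBI, vehicle-treated mice ran from 0.0418 over 1.31 to 15.7 CPM and mice given 200 mg/kg from 0.0956 over 0.178 to 19.9. Each irradiated group joined mice near 0 with 1 or 2 mice above 10 CPM, namely mice 49 and 51 with vehicle and mouse 59 with BIO 300.

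Cfd encodes adipsin, the complement protease factor D that fat cells secrete, and lies on chromosome 10 from 79890853 to 79892655. Its highest levels were 44.2 CPM in mouse 59, 34.8 in mouse 39, 23.5 in mouse 43 and 20.1 in mouse 41, and it was at 1 CPM or more in 26 mice. Mouse 43 thus stood above mouse 49, at 16.3 CPM, for Cfd and below it for Adipoq. Its group medians ran from 0.104 CPM in vehicle-treated mice on Day 1 to 3.81 CPM in vehicle-treated mice on Day 0. Retn encodes resistin, a hormone of rodent fat cells, lies on chromosome 8 from 3655770 to 3660110, and behaved differently. The 12 irradiated mice ran from 2.24 over a median of 6.3 to 10.1 CPM and the 48 unirradiated mice from 0.186 over 0.551 to 2.88 CPM. Retn was therefore high in irradiated mice with and without fat cell transcripts. Mouse 53, with Adipoq at 0.0418 CPM, had Retn at 9.50 CPM, and mouse 51, with Adipoq at 15.0, had Retn at 2.87.

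The lipid droplet genes followed Adipoq closely. Plin1 (chromosome 7, 79720218 to 79732903) encodes perilipin 1, which guards the droplet against lipases, and Cidec (chromosome 6, 113424634 to 113435760) encodes a protein that fuses droplets. Plin1 reached 38.8 CPM in mouse 39, 27.5 in mouse 59, 24.6 in mouse 49, 24.1 in mouse 51 and 14.3 in mouse 41. Cidec reached 35.6 CPM in mouse 59, 33.3 in mouse 49, 28.6 in mouse 39, 27.6 in mouse 51 and 14.0 in mouse 41. These 5 mice were the 5 above 10 CPM for Adipoq, Plin1 and Cidec alike, although their order differed between genes. Pearson r over the 60 mice, on the log2(CPM + 1) scale, was 0.978 for Adipoq with Plin1 and for Adipoq with Cidec, and 0.967 for Plin1 with Cidec. Fabp4 (chromosome 3, 10204088 to 10208576), a fatty acid carrier of fat cells that endothelium and macrophages also make, was detected in every mouse at 1.16 CPM or more. It rose from there to 150.0 CPM in mouse 39 and 88.4 in mouse 41, with r of 0.932 with Adipoq.

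Lpl, Scd1 and Car3 are used by other tissues too, and they parted from Adipoq in named mice. Lpl (chromosome 8, 68880491 to 68907448) encodes the lipase that frees fatty acids from circulating lipoproteins and is also made by heart and skeletal muscle. Its highest level was 636 CPM in mouse 57 (200 mg/kg with TBI), at 33260 of the 53333 Lpl counts of all mice, while Adipoq was 0.0956 CPM there. In this mouse 6 heart muscle genes, a list added after seeing the data, summed to 4308 CPM, against at most 10.6 CPM in any other mouse, and 6 skeletal muscle genes summed to 412 CPM. The next highest Lpl levels were 89.5 CPM in mouse 49, 80.9 in mouse 51, 80.4 in mouse 59 and 78.4 in mouse 39, all mice with high Adipoq.

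Car3 (chromosome 3, 14863512 to 14872523) encodes a carbonic anhydrase of fat, muscle and liver. It was highest at 863 CPM in mouse 51, 661 in mouse 37, 630 in mouse 49, 596 in mouse 57 and 579 in mouse 17. Mouse 37 had Adipoq at 0.035 CPM, and mouse 21, with Car3 at 152 CPM, had none. Both carried transcripts of hepatocytes, with 10 liver genes such as Alb summing to 3582 CPM in mouse 37 and 1722 CPM in mouse 21, against a median of 0.67 CPM over the 60 mice. Mice 51, 49, 57 and 17 also stood high for the liver genes, at 26960, 6828, 9573 and 11780 CPM. Car3 was therefore high in mice with fat cell transcripts, in mice with liver transcripts and in mice with both, and the part of each was not tested.

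Scd1 (chromosome 19, 44394455 to 44407879) encodes a desaturase that makes monounsaturated fatty acids. It was abundant in every unirradiated mouse, from 80.3 over a median of 209 to 1368 CPM, including mice without a count of Adipoq. The 12 irradiated mice ran from 13.6 over 36.3 to 522 CPM. Of these 12, the 4 above all others were mice 49, 51, 57 and 59, at 522, 480, 379 and 172 CPM. Levels in the remaining 8 spanned 13.6 to 50.1 CPM, below every unirradiated mouse. Scd1 correlated with Adipoq at an r of 0.486.

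**Figure D2:**
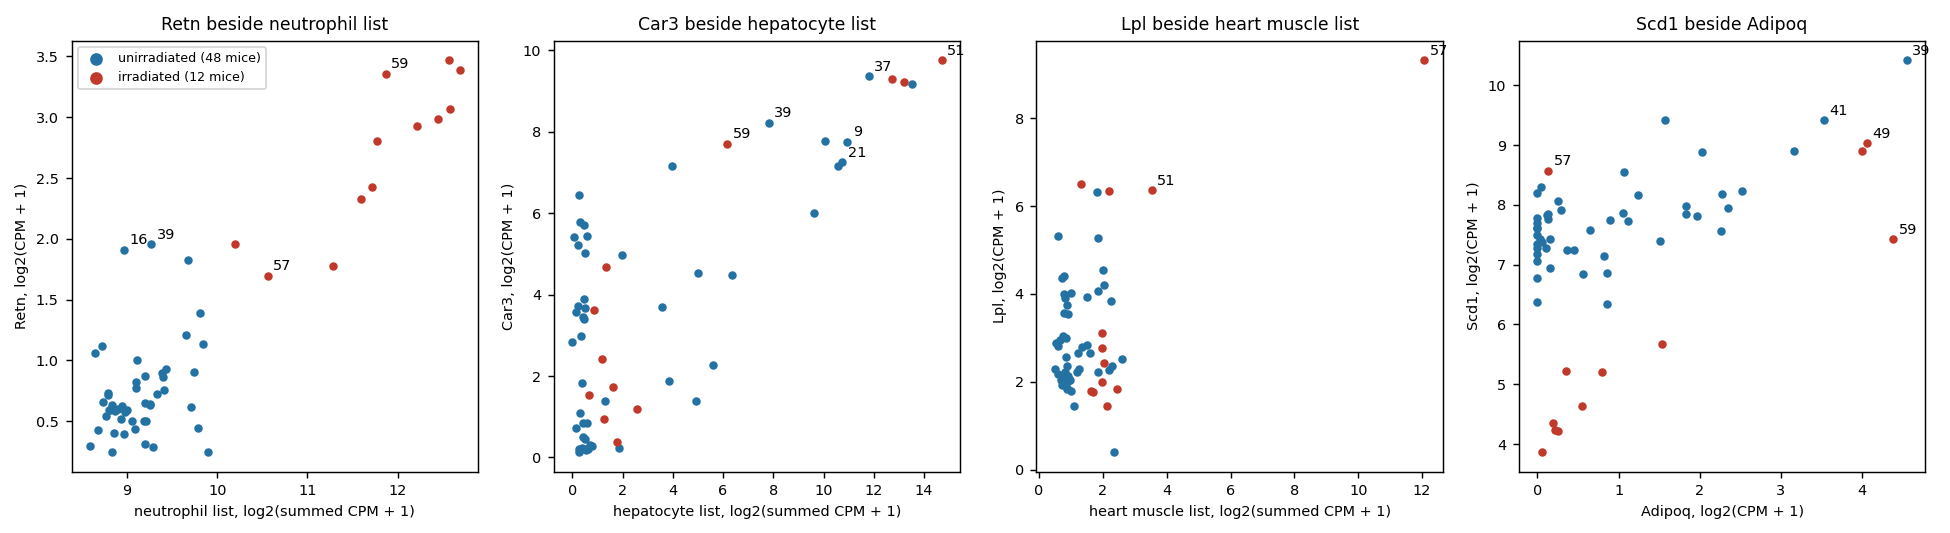
Retn, Car3, Lpl and Scd1 (vertical axes) against the summed level of the neutrophil, hepatocyte and heart muscle lists and against Adipoq (horizontal axes), all on the log2(CPM + 1) scale, with 1 point per mouse. Retn ran from 2.24 to 10.1 CPM in irradiated mice, where the neutrophil list was 1172 CPM or more, mouse 37 had high Car3 with liver transcripts, mouse 57 had Lpl of 636 CPM with heart transcripts, and Scd1 was low in irradiated mice other than 49, 51, 57 and 59.

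S100b lies on chromosome 10 from 76253853 to 76261159 on the forward strand, in 3 exons, and 1731 of its bases overlap the reverse-strand gene Dip2a. Dip2a itself passed in none of the 10 comparisons below, with log2 fold changes from -0.56 to 0.36. It was the rarest member. The 60 libraries together held 310 S100b counts, 18 mice had none, 41 had 3 or fewer and the highest had 52. In CPM, vehicle-treated mice ran from 0 over 0.0955 to 0.203 on Day 0 and from 0.0246 over 0.134 to 0.316 on Day 1. Mice given 50 mg/kg ran from 0.0288 over 0.0579 to 0.101 CPM on Day 0 and from 0 over 0 to 0.0573 on Day 1. Mice given 100 mg/kg ran from 0 over 0.0534 to 0.114 CPM on Day 0 and from 0 over 0 to 2.76 on Day 1. In most groups S100b was thus near the limit of detection in the middle mouse, and the ranges of all neighbouring groups overlapped. Mice given 200 mg/kg ran from 0 over 0.0196 to 0.551 CPM on Day 0 and from 0 over 0 to 0.686 on Day 1. Irradiated mice ran from 0.0741 over 0.151 to 1.47 CPM with vehicle and from 0 over 0.126 to 0.363 with 200 mg/kg. All 4 mice at 1 CPM or more belonged to the 100 mg/kg Day 1 group or the irradiated vehicle group, and in both the other 4 mice had 4 counts or fewer.

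These 4 mice were mouse 39 at 2.76 CPM (23 counts, exact 95% Poisson interval 14.6 to 34.5), mouse 41 at 1.89 CPM (39 counts, 27.7 to 53.3), mouse 51 at 1.47 CPM (52 counts, 38.8 to 68.2) and mouse 49 at 1.38 CPM (47 counts, 34.5 to 62.5). The intervals cover counting error only. They were also 4 of the 5 mice with the highest Adipoq and the 4 with the highest Ucp1. Below them came mouse 43 at 0.686 CPM (17 counts), mouse 20 at 0.551 (13 counts), mouse 22 at 0.433 (8 counts), mouse 59 at 0.363 (10 counts) and mouse 30 at 0.316 (12 counts). These 5 mice had Adipoq between 2.92 and 19.9 CPM and Ucp1 between 15.0 and 33.0 CPM. Of the 10 mice with the highest S100b, 7 were among the 10 highest for Adipoq, 9 for Plin1, 9 for Ucp1 and 10 for Cidea, against 3 for Retn and 3 for the liver gene Alb.

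**Figure D3:**
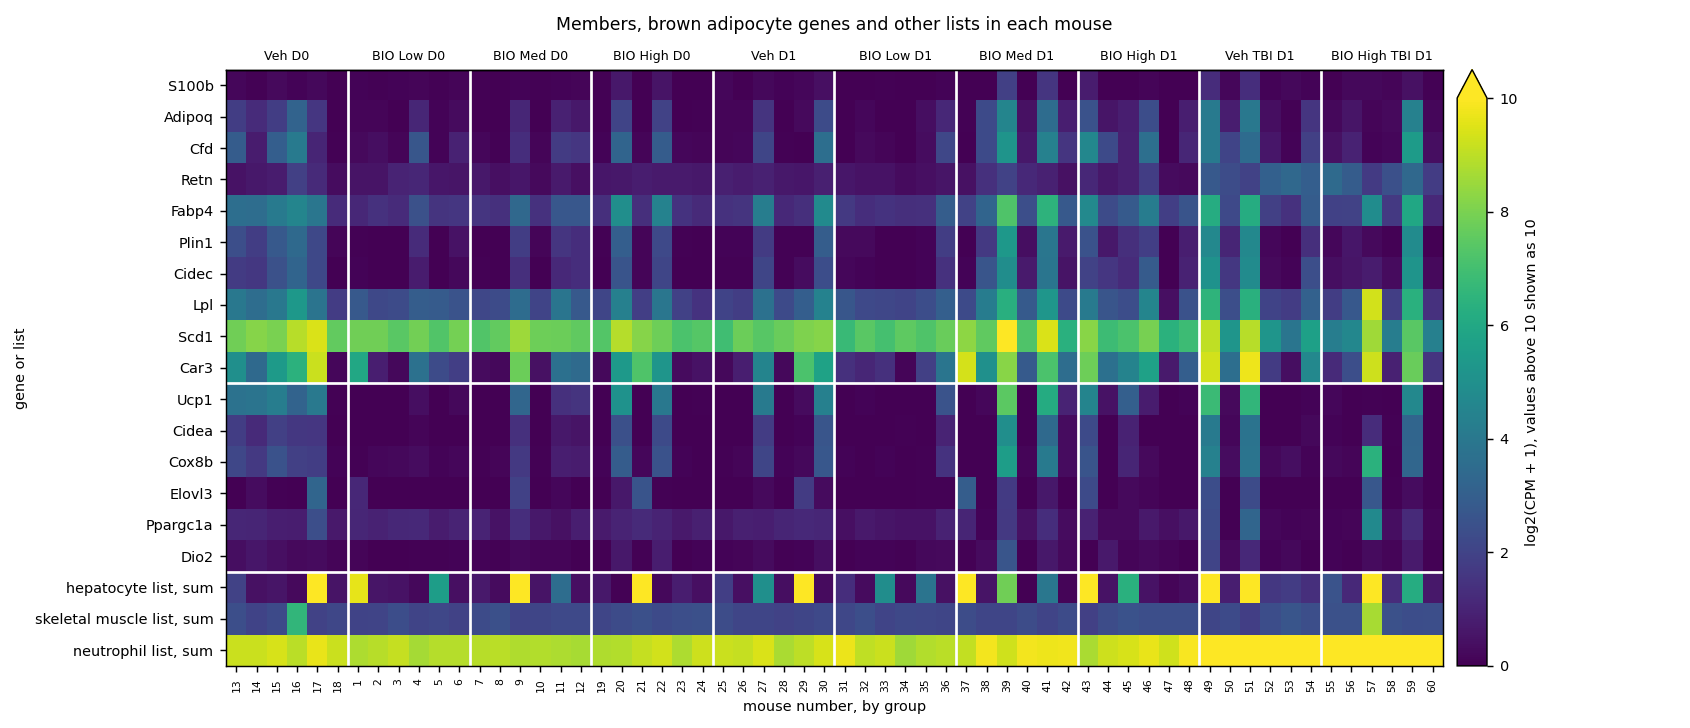
Colour gives log2(CPM + 1), with values above 10 shown as 10, for the 10 members, 6 brown adipocyte genes and the sums of 3 other lists (rows) in each of the 60 mice (columns, by group). Mice 39, 41, 49, 51 and 59 light up across Adipoq, Cfd, Fabp4, Plin1, Cidec, Ucp1 and Cidea, and S100b is visible in the first 4 of them. Liver transcripts appear in each of these mice, from 14.57 CPM in mouse 41 to 26960 CPM in mouse 51, and in others without Adipoq.

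Over the 60 mice, S100b and the mean of the 9 adipocyte members, on the log2(CPM + 1) scale, had a Pearson r of 0.765 and a Spearman rho of 0.615. Without the 2 mice farthest from the median, 39 and 49, r was 0.694, and on deviations from the group medians it was 0.699. It was 0.74 over the 48 unirradiated and 0.818 over the 12 irradiated mice, and leaving out any 1 mouse kept it between 0.735 and 0.791. With 3 or fewer S100b counts in 41 mice, the relation describes mainly where the few high mice lay, and no p is given because the genes were listed for it. By member, r was 0.793 with Fabp4, 0.789 with Plin1, 0.786 with Adipoq, 0.756 with Cidec, 0.698 with Cfd, 0.636 with Lpl, 0.555 with Car3, 0.468 with Scd1 and 0.28 with Retn. By r, S100b thus went most closely with the carrier, droplet and adiponectin genes, and least with Retn. By rho the order differed, with Adipoq and Lpl highest at 0.632 and Scd1, at 0.448, below Retn, at 0.506.

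The brown adipocyte list, Ucp1, Cidea, Cox8b, Elovl3, Ppargc1a and Dio2, gave an r of 0.838 and a rho of 0.602 with S100b. Its genes gave 0.874 for Cidea, 0.829 for Dio2, 0.803 for Ucp1, 0.778 for Cox8b, 0.455 for Ppargc1a and 0.422 for Elovl3. For Dio2 the rho was 0.456. The list is not particular to fat in every mouse, as mouse 57 summed to 115.5 CPM for it beside 4308 CPM for the heart muscle list. Without mice 39 and 49, r with the list was 0.764. Lists of other tissues and cells gave lower values, among them 0.4 for fibroblasts, 0.39 for hepatocytes, 0.387 for endothelium, 0.349 for mesothelium, 0.0907 for neutrophils and -0.336 for T cells. Among the 12 irradiated mice, however, the hepatocyte list had an r of 0.817 and a rho of 0.671 with S100b. Mice 49 and 51 were high for liver, fat and S100b alike. Unirradiated mice 39 and 41 had hepatocyte sums of 224.6 and 14.57 CPM, against a median of 0.67 CPM over the 60 mice. Of the mice next in S100b, mouse 43 had 1076 and mouse 59 had 71.2 CPM, while mice 20, 22 and 30 had 0.237 CPM or less. Sox10, a marker of glia, was at 0.27 CPM or less in every mouse and at 0.113 CPM or less in the 4 mice highest for S100b. All these values describe points that share libraries and their depth.

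Some mice with like Adipoq levels differed in Ucp1, and in those named next S100b differed with it. Mice 38, 46 and 16 had Adipoq at 3.80, 4.11 and 7.97 CPM, Ucp1 at 0.141, 0.684 and 7.97 CPM, and S100b at 0, 0.0977 and 0.0628 CPM (0, 1 and 1 counts). Mice 20, 30 and 43 had Adipoq at 3.09, 3.84 and 4.72 CPM, Ucp1 at 33.0, 19.2 and 22.0 CPM, and S100b at 0.551, 0.316 and 0.686 CPM. These mice were picked after their values were seen, so they illustrate the spread and test nothing. Others went the other way. Mice 30 and 43 summed to 31.73 and 35.57 CPM for the brown adipocyte list. Mice 13, 14, 17 and 27 summed to 19.92, 18.55, 33.32 and 23.18 CPM, without being among the 10 highest for S100b. At the top of the Adipoq range, mouse 59 had Adipoq at 19.9, Ucp1 at 24.3 and S100b at 0.363 CPM, and mouse 39 had 22.4, 177 and 2.76 CPM. Mouse 38 was low for Ucp1 and S100b but had Lep, the hormone leptin made mainly by white fat, at 1.27 CPM, and mouse 16 had Lep at 2.13 CPM. The share of brown and white fat in any library was not tested.

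**Figure D4:**
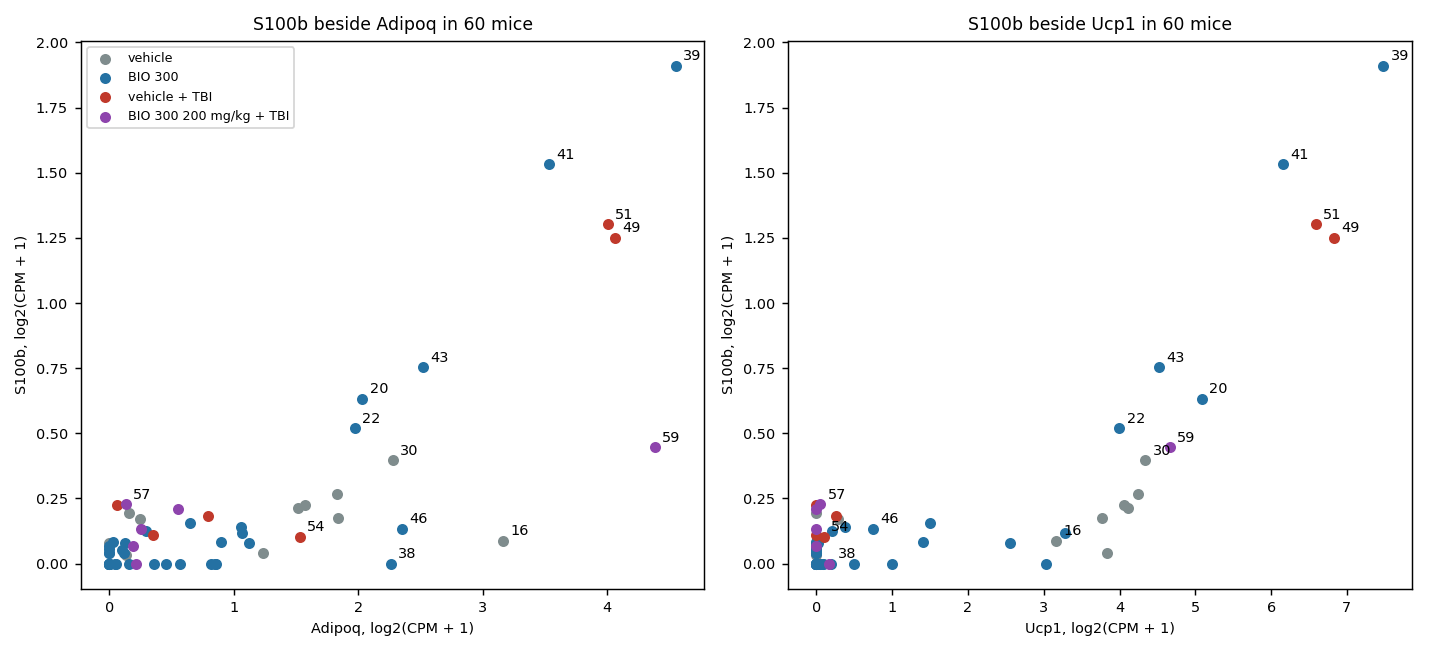
S100b (vertical axes) against Adipoq (left) and Ucp1 (right) on the log2(CPM + 1) scale, 1 point per mouse, coloured by treatment and with numbers for named mice. Mice 16, 38 and 46 lie low for S100b beside mice of like Adipoq such as 43, and they lie to the left of them for Ucp1, while 39, 41, 49 and 51 are high on both axes.

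Among 13485 genes with a mean of 1 CPM or more, the 10 non-members most like the mean of the 9 adipocyte members included Trarg1, Gpd1, Acacb, Cidea, Thrsp, Mme, Slc36a2, Pdk4 and Ucp1, with r from 0.94 for Trarg1 to 0.873 for Ucp1. The 10 genes most like S100b, members included, were Cidea at 0.874, Trarg1 at 0.846, Slc36a2, Cib2, Gpx3, Tkt, Ucp1, Mme, Fabp4 and Plin1 at 0.789. The lists shared 5 genes, Cidea, Mme, Slc36a2, Trarg1 and Ucp1. Of these, Trarg1 encodes a regulator of glucose transporter trafficking in fat cells and Cidea a droplet protein of brown fat. With a pseudocount of 0.1 in place of 1, the adipocyte list kept 10 of its 10 genes and the S100b list 6 of 10, so the order for the rarer gene leaned on how low values were treated.

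Differences between groups were fitted with edgeR over all genes, and a gene passed at an adjusted p under 0.05 with a change of more than 1 log2 unit. All 10 members were tested in each comparison. On Day 0, 50 mg/kg BIO 300 against vehicle gave 5 members that passed, all lower, beside 4.50% of all genes passing in either direction and 4.38% lower. They were Fabp4 (-2.61, SE 0.529, adjusted p = 0.0064), Cidec (-4.56, SE 1.22, adjusted p = 0.0263), Lpl (-1.59, SE 0.458, adjusted p = 0.0361), Adipoq (-3.43, SE 1.05, adjusted p = 0.0461) and Plin1 (-3.90, SE 1.2, adjusted p = 0.0471). For Adipoq the vehicle-treated mice had 2.57, 1.35, 2.56, 7.97, 1.98 and 0 CPM and the treated mice 0.0948, 0.0864, 0.0196, 1.08, 0.0736 and 0.226 CPM. In each of the 5 genes the groups overlapped through vehicle mouse 18 alone, the other 5 vehicle-treated mice lying above every treated mouse. All 10 members had values below 0, with a median of -2.40 against 0.03 over all genes, and S100b was at -0.63 (SE 0.614, adjusted p = 0.512). DESeq2 also gave 5, beside 1351 of 24485 genes. Of the brown adipocyte list, 4 of 6 genes fell (Ucp1, Cidea, Cox8b and Dio2), and of the wider adipocyte lists 2 of 6 droplet, 5 of 12 lipid synthesis and 4 of 8 other genes fell, with none higher. Genes of other tissues fell in the same comparison, with 3 of 6 endothelial genes (Emcn, Kdr and Tie1), 2 of 6 fibroblast genes (Col1a2 and Col3a1) and 1 each of the smooth, skeletal and heart muscle lists. The 10 hepatocyte genes had a median of -3.81 with none past the threshold. The part of these tissues in the members' values was not tested.

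The number of members passing moved with single mice. Without mouse 1, 3, 5 or 6 of the treated group, 1 member passed, and without treated mouse 2 or vehicle mouse 13, 15 or 16, 2 passed. Without treated mouse 4, 4 passed, and without vehicle mouse 14, 17 or 18, 5 passed. Fabp4 passed in each of the 12 refits. Scaling by total counts instead of TMM turned S100b to 0.06 and Retn to 0.20, moved the median of all genes from 0.03 to 0.69, and gave 2563 genes higher and 307 lower in place of 31 and 1072. With total counts 4 members passed.

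At 100 mg/kg on Day 0 edgeR passed no member beside 0% of genes, DESeq2 passed 0 and 3 had an unadjusted p under 0.05, with all 10 below 0 and a median of -1.62. At 200 mg/kg on Day 0 the counts were 0 beside 0% of genes, 0 by DESeq2 and 0 unadjusted, with a median of -1.04. Vehicle on Day 1 against vehicle on Day 0 likewise passed 0 beside 0% of genes, with 0 by DESeq2, 1 unadjusted and a median of -1.02. Vehicle-treated mice on Day 0 are the reference of all 4 of these comparisons, so they share the high Adipoq of 5 of its 6 mice. Adipoq itself was at -3.43, -2.61, -1.41 and -1.41 in the order given, and S100b at -0.63, -0.74, 0.73 and 0.48.

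On Day 1, 50 mg/kg against vehicle passed 0 members beside 0% of genes, with 0 by DESeq2 and 4 unadjusted (S100b, Retn, Fabp4 and Car3). S100b was at -2.77 (SE 0.809, adjusted p = 0.119) and all 10 members were below 0. At 100 mg/kg edgeR passed 0 members beside 48.8% of genes. DESeq2 passed 2, Fabp4 and Lpl, beside 10904 of 23699 genes, and 1 member fell under an unadjusted p of 0.05 by edgeR. All 10 values were above 0, with a median of 2.40 against -0.38 over all genes, and S100b was at 2.43 (SE 1.14, adjusted p = 0.0744). Under total counts S100b was at 0.97, Adipoq at 1.28, Fabp4 at 0.95 and Lpl at 0.21, and Retn and Scd1 fell below 0, at -0.64 and -0.30. Most of these values were far lower without mice 39 and 41, but Car3 was at 2.41 with and 2.32 without them, and Retn at 0.77 and 0.36. Without both, S100b was at -4.99 (adjusted p = 0.0205) and was the 1 member that passed, beside 10681 of 23387 genes. The 4 remaining mice had no S100b count, so this fitted value depends on the prior count and is no measure of size. The other 9 members then lay between -0.91 and 2.32, none past the threshold. Leaving out single mice gave 0 to 5 members, with 5 without mouse 30 or 37, 2 without mouse 42 and 1 without mouse 29, 38 or 40. With all mice 48.8% of all genes passed, so these counts are not read as a result about the members.

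At 200 mg/kg on Day 1 edgeR passed 0 members beside 47.8% of genes, with 0 unadjusted and 0 by DESeq2, which passed 10635 of 23513 genes. The median member was at 0.38 against -0.48 over all genes, and S100b at 0.33 (SE 0.884). Without mouse 43, S100b was at -2.65 (adjusted p = 0.0398) and passed, with 1 count over the 5 mice left. Under total counts 8 of the 10 members changed sign in this comparison, so no direction is given for the members. The median of all genes moved from -0.38 to -1.76 at 100 mg/kg and from -0.48 to -1.96 at 200 mg/kg. The split of genes passing moved from 4314 higher and 7249 lower to 980 and 14732 at 100 mg/kg, and from 4073 and 7168 to 712 and 15405 at 200 mg/kg. Of the wider adipocyte lists, 3 of 6 droplet, 3 of 12 lipid synthesis and 5 of 8 other genes passed as higher at 100 mg/kg under TMM, beside 18.2% of all genes, and 3 of 6, 2 of 12 and 2 of 8 at 200 mg/kg, beside 17.3%. Endothelial genes passed as higher in 6 of 6 and 4 of 6 cases and fibroblast genes in 3 of 6 and 1 of 6. All 6 T cell genes passed as lower at both doses, beside 30.6% and 30.5% of all genes.

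**Figure D5:**
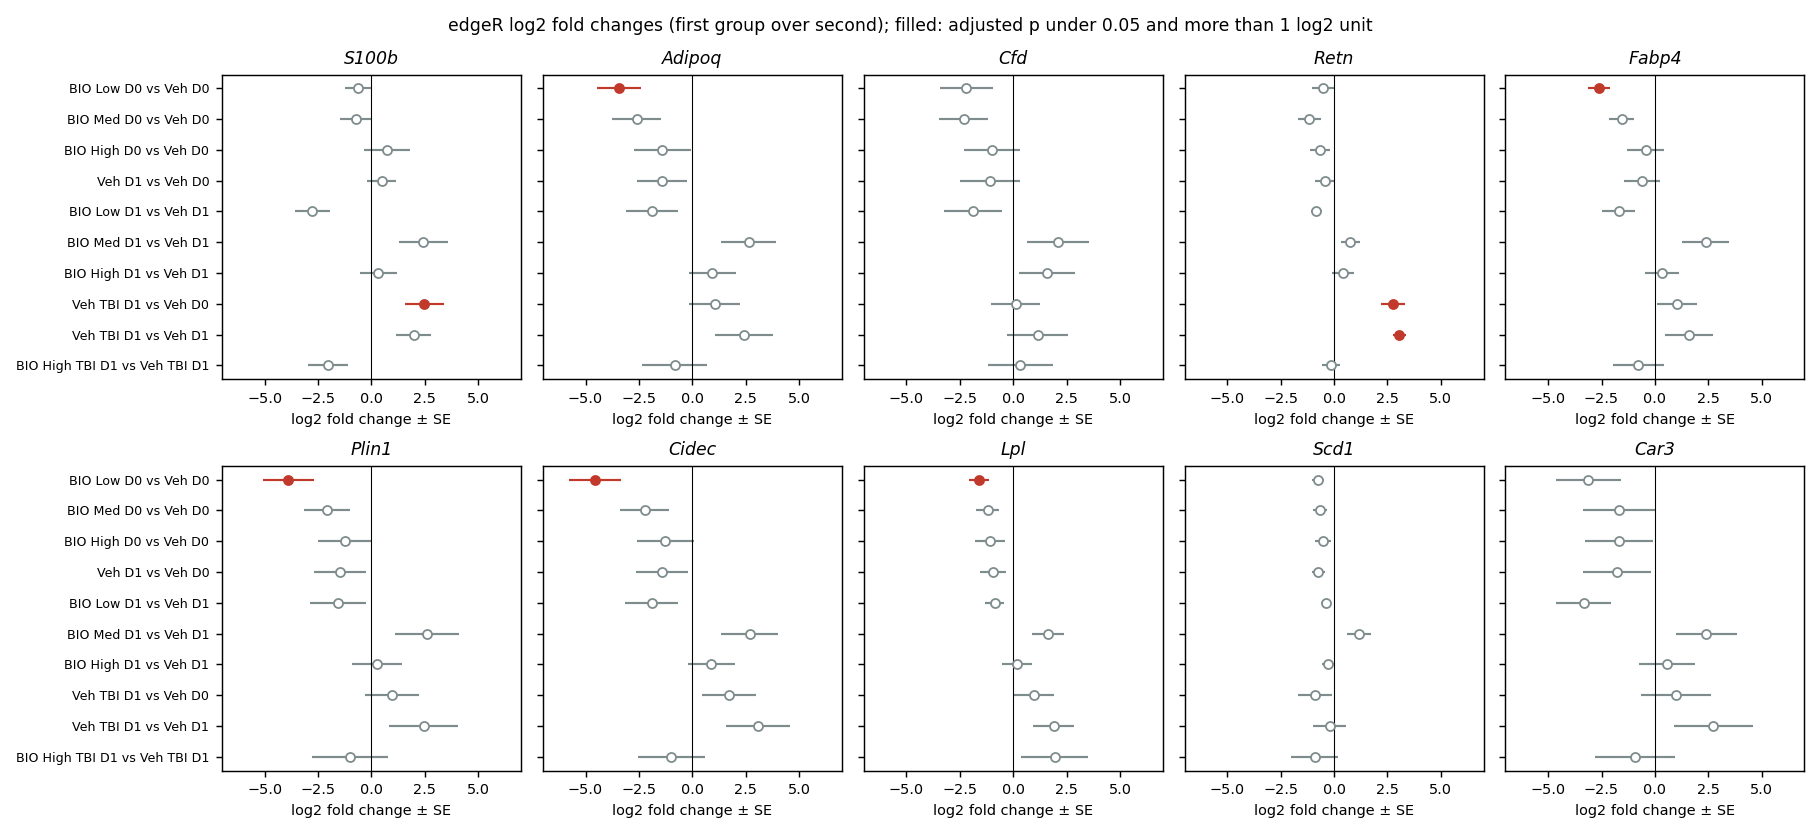
Log2 fold changes with standard errors (horizontal axes) of each member in the 10 comparisons (vertical axis, first group over second), filled where the adjusted p was under 0.05 with more than 1 log2 unit. Filled points are 5 members at 50 mg/kg on Day 0, S100b and Retn after TBI against vehicle on Day 0, and Retn after TBI against vehicle on Day 1.

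After TBI, vehicle-treated mice passed 2 members against vehicle on Day 0, beside 26.9% of all genes in either direction and 15.1% higher. Both were higher, Retn at 2.74 (SE 0.564, adjusted p = 0.0023) and S100b at 2.48 (SE 0.899, adjusted p = 0.0462). DESeq2 passed 2, beside 6670 of 24751 genes. Against vehicle on Day 1, 1 member passed beside 36.0% of genes in either direction and 19.6% higher, Retn at 3.05 (SE 0.312, adjusted p = 1.48e-05), while S100b was at 1.98 (SE 0.821, adjusted p = 0.0634). DESeq2 passed 3 there, S100b, Retn and Lpl, beside 9030 of 25146 genes. Retn ran from 2.87 to 9.50 CPM in these irradiated mice, against at most 2.76 CPM with vehicle on Day 0 and 0.901 CPM on Day 1. It kept its call in both comparisons without any 1 mouse. The 2 comparisons share the 6 irradiated mice. Under total counts Retn was at 2.59 and 2.64 and S100b at 2.64 and 1.86, and against Day 1 the genes passing moved from 4920 higher and 4122 lower to 3115 and 5667. In both, all 6 neutrophil genes of the fixed list were higher, among them the resistin-like gene Retnlg, and the list summed to between 1172 and 6593 CPM in irradiated mice, against 384 to 953 CPM in unirradiated ones. The part of neutrophils in the Retn level was not tested. Retn and Retnlg are related in sequence, and how reads shared by related genes were split is not given in the sources used here beyond the use of unique hits.

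The S100b difference after TBI lay in 2 of 6 irradiated mice. Mice 49 and 51 held 47 and 52 counts, and mice 50, 52, 53 and 54 held 2, 2, 4 and 2, beside 0 to 5 counts in the 6 vehicle-treated mice on Day 0. Without mice 49 and 51, S100b was at 0.28 against Day 0 (adjusted p = 0.772) and at -0.27 against Day 1 (adjusted p = 0.727). Against Day 0 the call was also lost without any 1 of the 6 vehicle mice or without mouse 49 or 51 alone, and against Day 1 it was gained without mouse 30, 52 or 54. The refit without mice 49 and 51 passed 4 members against Day 0, beside 8796 of 23497 genes. Retn was higher, and Scd1 (-3.27, adjusted p = 0.000147), Lpl (-1.76, adjusted p = 0.0307) and Fabp4 (-1.71, adjusted p = 0.0368) were lower. Against Day 1 it passed 2, beside 10360 of 23832 genes, Retn higher and Scd1 lower (-2.62, adjusted p = 3.12e-05). With all mice Scd1 was at -0.90 and -0.20. Mice 49 and 51 had the highest Adipoq of their group and summed hepatocyte levels of 6828 and 26960 CPM, so that transcripts of fat and liver moved with S100b, and their part in it was not tested. Of 13 tested genes on a list of other S100 proteins and their receptor Ager, 7 passed as higher against Day 0 and 8 against Day 1, S100a8 and S100a9 of neutrophils among them.

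In irradiated mice, 200 mg/kg BIO 300 against vehicle passed 0 members beside 0% of genes, with 0 by DESeq2 and 0 unadjusted. S100b was at -2.03 (SE 0.943, unadjusted p = 0.0514) and at -0.63 without mice 49, 51, 57 and 59. Lpl was at 1.94 (SE 1.57), with mouse 57 included, and at -0.51 without these 4 mice. Adipoq was at -0.83 (SE 1.54) and Retn at -0.13 (SE 0.411).

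Whether a dose effect differed between days was fitted after the data were seen. For 100 mg/kg, Day 1 minus Day 0, 7 members passed beside 42.0% of all genes. The largest differences were 5.25 for Adipoq (SE 1.85, adjusted p = 0.0197), 4.89 for Cidec (SE 1.88, adjusted p = 0.0314) and 4.67 for Plin1 (SE 1.98, adjusted p = 0.0494), and S100b was at 3.17 (SE 1.55, adjusted p = 0.0864). Without mice 39 and 41, 0 members passed, 1 had an unadjusted p under 0.05 and S100b was at -4.26. For 50 mg/kg, 0 members passed beside 7.69% of genes and 1 unadjusted, and for 200 mg/kg 0 passed beside 36.7% and 0 unadjusted. The 200 mg/kg effect on Day 1, irradiated minus unirradiated, passed 0 members beside 29.6% of genes and 0 unadjusted. DESeq2 was not run on these differences.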

How the data were processed

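Whole blood RNA of 60 mice was sequenced once per mouse. The authors trimmed reads with Trimmomatic 0.36, mapped them to GRCm38 with STAR 2.5.2b, counted unique gene hits with Subread 1.5.2 and deposited raw counts per gene in 10 tables, 1 per pair of groups, whose repeated columns were identical. Methods name a stranded total RNA kit with globin removal, whereas the labels name polyA selection, and the strand setting and annotation release are not given in the sources used here. Tables of the authors' own comparisons (fold changes, p-values) and 120 columns of normalized values per mouse in them were not used, except for gene names. Doses in mg/kg come from the methods, the Low, Med and High groups from the labels.

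Members and lists were chosen with earlier results of these data known. Each pair of groups was fitted in edgeR 4.0.16 (quasi-likelihood, TMM, genes with at least 10 counts summed over the 12 mice, Benjamini-Hochberg adjustment over all genes tested). A gene passed below an adjusted p of 0.05 with a change, up or down, of more than 1 log2 unit, the thresholds of the study. Standard errors (SE) of the edgeR fits were the absolute log2 fold change over the square root of its F statistic. They are approximate, most of all for genes near 0 counts such as S100b. Alternatives were DESeq2 1.42.0, scaling by total counts, other filters and leaving out mice. Interaction fits over 4 groups, refits without mice 39 and 41, 49 and 51, or 49, 51, 57 and 59, the relation with the brown adipocyte list and the heart muscle list were added after seeing the data. Named genes were the 10 members, at most the 3 most abundant genes of a list, and the 10 genes most like the members. Others named from a list were picked after their values were seen. The fit was tested on simulated data with known changes. Only genes with larger expected counts and limited dispersion were changed there, so it does not cover a gene as rare as S100b, with a median of 2 counts. Depth limits S100b most, and intervals cover counting error only. P-values measure the spread between mice. Some genes of these lists are not reported here.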

Additional observations from a re-analysis of the deposited data

Results flagged for a closer look

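For each member, each group of 6 mice was examined for a mouse set apart from the other 5, the gap to the nearest mouse being larger, as a share of the group's range, than Dixon's 95% critical value. Of 100 groups, 15 had such a mouse. Chance flags about 1 in 20 groups of normally distributed values, but these CPM are skewed, the members were chosen by their levels and several rise in the same mouse, so this count is a description and not a test. Mouse 59 (200 mg/kg with TBI) was set apart at 19.87 CPM for Adipoq, 44.17 for Cfd, 27.53 for Plin1 and 35.6 for Cidec, the other 5 mice lying below 1 CPM. Mouse 36 (50 mg/kg, Day 1) was set apart at 1.174 CPM for Adipoq, 3.349 for Cfd, 6.727 for Fabp4, 2.519 for Plin1 and 1.689 for Cidec. Mouse 4 (50 mg/kg, Day 0) was set apart at 1.081 CPM for Adipoq, 5.37 for Cfd, 4.56 for Fabp4 and 0.7093 for Cidec. Mouse 18, a vehicle-treated Day 0 mouse, was set apart on the low side, with Fabp4 at 1.319 CPM against 10.96 CPM or more in the other 5. For S100b, mouse 43 (200 mg/kg, Day 1) was set apart at 0.6863 CPM, the next mouse having 0.0977 CPM.

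The effect of 100 mg/kg on Day 1 differed from that on Day 0 in 7 members (edgeR interaction, adjusted p under 0.05), beside 42.0% of all genes, by 5.25 log2 units for Adipoq, 4.89 for Cidec, 4.67 for Plin1, 3.93 for Fabp4, 2.82 for Lpl, 1.9 for Retn and 1.81 for Scd1. Of these 7, 0 passed without mice 39 and 41.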

How the results depend on the processing

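The number of members passing depended on single mice and settings. Leaving out single mice gave 1 to 5 at 50 mg/kg on Day 0 (5 with all mice), 0 to 5 at 100 mg/kg on Day 1 (0), 0 to 1 at 200 mg/kg on Day 1 (0), 1 to 2 after TBI against vehicle on Day 0 (2) and 1 to 2 after TBI against vehicle on Day 1 (1). In this order, 4.50%, 48.8%, 47.8%, 26.9% and 36.0% of all genes passed with all mice. Shares of all genes in the refits without single mice are not given here. At 50 mg/kg on Day 0, testing genes with at least 1 count gave 3, beside 1022 of 31916 genes. At 100 mg/kg on Day 1, DESeq2 gave 2 (10904 of 23699 genes), filterByExpr 3 (7577 of 15255) and leaving out mice 39 and 41 gave 1 (10681 of 23387). At 200 mg/kg on Day 1, total counts gave 1, Scd1, beside 16117 of 23513 genes. After TBI against Day 0, total counts (5753 of 24751 genes), filterByExpr (5059 of 15602, S100b not tested) and at least 1 count (6198 of 32581) each gave 1. Leaving out mice 49 and 51 gave 4, beside 8796 of 23497 genes. Against Day 1, DESeq2 gave 3 (9030 of 25146 genes) and leaving out mice 49 and 51 gave 2 (10360 of 23832). The correlation of S100b with the 9 members, 0.765, was 0.694 without 2 mice and 0.699 on deviations from group medians, and that with the brown list, 0.838, was 0.764 without 2 mice.

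The S100b log2 fold change turned in sign in 6 refits: 0.06 at 50 mg/kg on Day 0 and -0.95 at 200 mg/kg on Day 1 with total counts, -0.21 at 200 mg/kg on Day 0 without mouse 20, -2.65 at 200 mg/kg on Day 1 without mouse 43, -4.99 at 100 mg/kg on Day 1 without mice 39 and 41, and -0.27 after TBI against Day 1 without mice 49 and 51. Leaving out single mice kept it between -0.21 and 1.06 at 200 mg/kg on Day 0 and between -2.65 and 0.71 at 200 mg/kg on Day 1. The other 133 settings of the counts and correlations moved them by less. Total counts moved 7 of 100 group medians by 1 SD or more. With 310 S100b counts in all, differences below a few counts per library were not detectable. No paired analysis was possible because animal numbers are not shared between groups.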
